A study of Mus musculus with 12 samples.

Results

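A set of 10 genes that are known from hair cells or the tectorial membrane, or that were grouped with them, was examined in sorted spiral ganglion neurons of the mouse embryo. They were Tectb, Tecta, Cib2, Myo7a, Lhfpl5, Otof, Barhl1, Pcp4, Ccer2 and Rasd2, and they were taken from the count table by the Ensembl identifier of each symbol. All 10 were found, out of 25674 genes in the table. They were selected on the detection of their reads in these neurons, with no numeric threshold, so their detection is a description of the choice and was not tested.

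Hair cells are the sensory cells of the inner ear. They carry a bundle of stereocilia whose deflection opens mechanotransduction channels, and they signal to spiral ganglion neurons through a ribbon synapse at their base. The tectorial membrane is an extracellular matrix that lies over the hair bundles of the cochlea, and it is secreted by neighbouring epithelial cells during development. Spiral ganglion neurons arise from the same otic epithelium and send their peripheral processes to the hair cells.

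The study asked how loss of the LIM-homeodomain transcription factor ISL1 in these neurons changes their gene expression. Control embryos carried a Neurod1Cre transgene, in which a bacterial artificial chromosome drives Cre from Neurod1, and the Cre reporter Rosa26tdTOM (Ai14). The embryos tagged ISL1CKO, written Isl1CKO here, carried the same transgene and reporter and in addition Isl1loxP/loxP, so both groups hold Cre and tdTomato. All lines were on a mixed C57BL/6/sv129 background. Spiral ganglia from the inner ears of a single embryo of either sex were dissected at E14.5 (embryonic day) for each sample, and 100 tdTomato+ cells were sorted by flow cytometry. The reporter marks every cell with a history of Cre activity, so the sort does not select on a marker of the neuron itself. There were 6 libraries in each group.

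Library totals ran from 11895603 to 13857480 counts, and 3 counts in a library, the floor used here, corresponded to 0.219 to 0.250 CPM. CPM is a gene's count scaled to a common library size by the trimmed mean of M-values (TMM). Isl1 itself measured 1171 to 1777 CPM in the controls and 1050 to 1589 CPM in the libraries labelled Isl1CKO, with a log2 fold change of -0.15 (SE 0.11, adjusted p = 0.460, edgeR quasi-likelihood test). Reads were summed over all Isl1 exons, and such a sum does not report on the floxed part alone, so the genotype rests on the labels. The 15 neuron genes listed summed to 17946 to 20849 CPM in the controls and to 15827 to 18165 CPM in the libraries labelled Isl1CKO. Isl1CKO libraries 2, 3 and 5 held transcripts of both sexes, with Xist at 62.9, 77.8 and 132 CPM and a mean of the Y-linked genes at 61.0, 87.3 and 35.7 CPM, although each sample was described as a single embryo. Results are therefore also given without these 3 libraries. A label tag names the numbered samples technical replicates while the design text names them biological replicates. If they do not come from separate embryos, the p-values measure only the spread between these libraries. In bulk libraries, fewer cells of a type and less RNA per cell cannot be told apart.

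Of the 10 genes, 4 (Tectb, Rasd2, Ccer2 and Pcp4) were lower in the libraries labelled Isl1CKO, and 0 were higher. The other 6, Tecta, Cib2, Myo7a, Lhfpl5, Otof and Barhl1, did not pass the test in either direction. A gene was called at a Benjamini-Hochberg adjusted p under 0.05 over all 14813 genes tested with edgeR's quasi-likelihood test. Of all genes tested, 10.2% were called, with 5.19% in the lower and 5.01% in the higher direction. Over the 10 genes the median log2 fold change was -0.69, against 0.0045 over all genes tested. The same 4 genes were the members whose CPM did not overlap between the groups, which held for 6.78% of all genes tested and, in the lower direction, for 3.65%. Tectb and Rasd2 passed the filter on low counts only with the controls. For them, being tested was tied to being high in that group. The 10 genes were also grouped with results of the data known, so the counts describe them and do not show that genes of this kind changed more often than others.

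**Figure D1:**
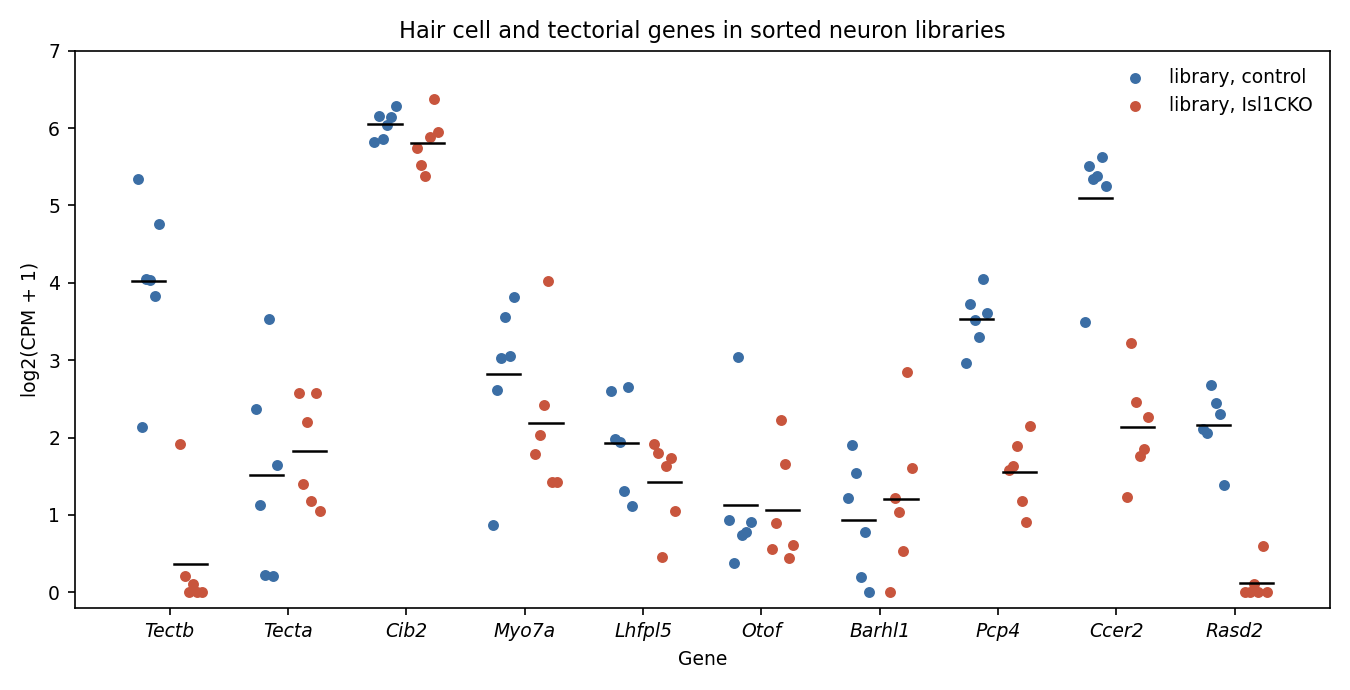
Levels of the 10 genes in each library, as log2(CPM + 1), with 1 point per library and a line at the mean of each group of 6. Tectb, Pcp4, Ccer2 and Rasd2 separate the controls (blue) from the libraries labelled Isl1CKO (red), and the other 6 genes overlap.

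The 250 bases upstream of the RefSeq start of the 4 genes that were lower are shown because these are the members that were called. They come from the RefSeq promoter table on GRCm38.p6, which matched 9 of the 10 genes (all but Otof). Tectb is at chr19:55180476-55180725, Pcp4 at chr16:96467356-96467605, Ccer2 at chr7:28755924-28756173 and Rasd2 at chr8:75213694-75213943, each on the plus strand, and no annotated exon lies in these windows. Capitals mark matches to 7 motifs searched on both strands, which were the homeodomain letters TAATTA, the E-boxes CAGATG and CAGCTG, the GATA letters AGATAA, the cyclic AMP response element TGACGTCA, the TATA letters TATAAA and the POU octamer ATGCAAAT.
Tectb: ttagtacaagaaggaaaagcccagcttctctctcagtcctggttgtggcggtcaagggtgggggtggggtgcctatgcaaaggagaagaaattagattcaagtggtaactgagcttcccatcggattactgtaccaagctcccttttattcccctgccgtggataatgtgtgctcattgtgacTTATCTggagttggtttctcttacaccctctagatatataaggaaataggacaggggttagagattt
Pcp4: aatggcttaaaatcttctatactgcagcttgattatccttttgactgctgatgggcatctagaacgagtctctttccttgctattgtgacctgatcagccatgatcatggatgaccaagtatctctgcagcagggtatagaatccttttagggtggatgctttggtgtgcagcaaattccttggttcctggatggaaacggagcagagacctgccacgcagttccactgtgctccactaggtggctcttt
Ccer2: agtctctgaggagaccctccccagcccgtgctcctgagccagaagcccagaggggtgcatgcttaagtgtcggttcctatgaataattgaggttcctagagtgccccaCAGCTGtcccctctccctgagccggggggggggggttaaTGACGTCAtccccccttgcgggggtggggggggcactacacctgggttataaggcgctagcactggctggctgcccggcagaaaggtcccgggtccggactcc
Rasd2: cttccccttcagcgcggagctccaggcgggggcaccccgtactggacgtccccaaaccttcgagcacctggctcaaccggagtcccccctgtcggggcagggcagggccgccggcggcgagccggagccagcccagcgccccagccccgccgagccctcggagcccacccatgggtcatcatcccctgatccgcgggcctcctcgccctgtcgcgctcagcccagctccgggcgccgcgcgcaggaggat

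The Tectb window held 1 match, the GATA letters on the minus strand (TTATCT as printed) 67 bases upstream of the start. The Ccer2 window held CAGCTG 142 bases and TGACGTCA 103 bases upstream. Pcp4 and Rasd2 held none of the 7 motifs. Over all 32851 promoters in the table, windows of the same length held AGATAA in 9.99%, CAGCTG in 13%, TGACGTCA in 1.55%, CAGATG in 14.4%, TAATTA in 4.84%, TATAAA in 12.4% and ATGCAAAT in 1.6%. No motif was found in more than 1 of the 4 windows. The windows also differed in base composition, with a GC content of 46.0% for Tectb, 46.8% for Pcp4, 63.6% for Ccer2 and 75.2% for Rasd2, around a median of 52.4% over all promoters. Among the members that were not called, Tecta held CAGATG in both of its windows (41 and 58 bases upstream), and Lhfpl5 and Barhl1 held CAGCTG. Cib2 and Myo7a held none of the 7. A match is a run of letters and does not show binding.

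Tectb encodes beta-tectorin and Tecta alpha-tectorin, which are non-collagenous glycoproteins of the tectorial membrane. Tectb (ENSMUSG00000024979, chr19:55180733-55196313 on GRCm38, plus strand) measured 39.6, 3.40, 15.6, 15.4, 13.2 and 26.2 CPM in controls 1 to 6. In the libraries labelled Isl1CKO it measured 2.77, 0.155, 0, 0.0747, 0 and 0 CPM, from 35, 2, 0, 1, 0 and 0 counts. Every control was above every library labelled Isl1CKO, and 5 of the 6 latter libraries were at or under the floor. The log2 fold change was -5.24 (SE 1.04, adjusted p = 0.00398, edgeR quasi-likelihood test). Isl1CKO 1 held 35 of the 38 Tectb counts of its group, and the log2 fold change was -8.43 without it. Against the floor of the other 5 libraries, Tectb was at least 83.7-fold lower than the control mean of 18.9 ± 12.5 CPM (SD, n = 6). Without Isl1CKO libraries 2, 3 and 5 its log2 fold change was -4.32 and the call was lost (adjusted p = 0.0577). In that comparison Isl1CKO 1 is 1 of the 3 libraries left.

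Tecta (ENSMUSG00000037705, chr9:42329619-42399929, minus strand) did not pass the test. It measured 4.15, 1.184, 0.167, 10.6, 0.159 and 2.12 CPM in controls 1 to 6 and 4.99, 1.63, 3.61, 1.27, 4.96 and 1.07 CPM in Isl1CKO 1 to 6. Controls 3 and 5 held 2 counts each while control 4 held 143, so the controls alone spanned the whole range of the other group. The log2 fold change was -0.07 (SE 0.82, 95% interval -1.89 to 1.75, adjusted p = 0.972). Its sign depended on single libraries, since it was 0.90 without control 4 and -0.33 without control 5. In control 4 the hair cell gene Ptprq and the tectorial gene Otogl were also high, at 25.1 and 2.30 CPM. Other genes of their lists were mixed there. Chrna9 was the highest control at 6.96 CPM, the matrix gene Emilin2 was the lowest at 1.41 CPM, and Otoa, Gfi1, Lhx3 and Slc26a5 held 0 counts. The part of other cells in the Tecta value was not tested.

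Of 12 other genes of the tectorial and otolithic matrix with a row, 8 were tested, 1 was lower and 0 were higher. Of all genes tested, 5.19% were lower and 5.01% higher. Otol1, an otoconial collagen-like protein, fell from 12.9 ± 3.87 to 2.61 ± 2.19 CPM (SD, n = 6 each; log2 fold change -2.30, adjusted p = 0.0379), with groups that overlapped, and the call was lost under 12 of the 22 alternatives (adjusted p from 0.00141 to 0.279). The collagens Col11a1 and Col2a1, the genes of this list with the highest mean CPM, were at 14.52 and 10.4 CPM in the controls and 11.7 and 14.52 CPM in the libraries labelled Isl1CKO, and neither passed the test. Otoa, Otog and Oc90 averaged at most 0.598 CPM in either group. The median log2 fold change of the 8 genes was -0.34.

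Cib2, Myo7a and Lhfpl5 act in mechanotransduction at the hair bundle. Cib2 (ENSMUSG00000037493, chr9:54544794-54560218, minus strand), a calcium- and integrin-binding protein of the transduction complex, was the steadiest of the 10. Controls 1 to 6 measured 55.5, 70.1, 56.9, 65.0, 70.0 and 76.9 CPM, and Isl1CKO 1 to 6 measured 52.5, 44.9, 40.6, 58.0, 82.4 and 60.6 CPM. The groups overlapped, with the highest value in Isl1CKO 5, and the log2 fold change was -0.22 (SE 0.16, 95% interval -0.57 to 0.13, adjusted p = 0.449). Cib2 was above the floor in 12 of 12 libraries. Its close relative Cib1 measured 22.5 CPM in both groups (log2 fold change 0.0030, adjusted p = 0.994).

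Myo7a (ENSMUSG00000030761, chr7:98051060-98119524, minus strand) encodes an unconventional myosin of the stereocilia. It measured 0.831, 5.10, 7.17, 10.7, 7.29 and 13.1 CPM in controls 1 to 6 and 2.46, 3.10, 4.37, 15.2, 1.68 and 1.68 CPM in Isl1CKO 1 to 6. The lowest library was a control and the highest was Isl1CKO 4, so the groups overlapped. The log2 fold change was -0.63 (SE 0.63, 95% interval -2.03 to 0.76, adjusted p = 0.602), and it was -1.47 without Isl1CKO 4 (adjusted p from 0.128 to 0.795 over the 12 libraries left out in turn). Isl1CKO 4 also had the highest summed level of 10 macrophage genes, at 749 CPM. Control 6, with Myo7a at 13.1 CPM, had a macrophage sum of 8.20 CPM. Control 1, with the highest macrophage sum of the controls at 394 CPM, had the lowest Myo7a of all libraries, at 0.831 CPM. The part of macrophage RNA in the Myo7a values was not tested beyond the fit with covariates below.

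Lhfpl5 (ENSMUSG00000062252, chr17:28575641-28585679, plus strand), a membrane protein that links tip link and channel, measured 5.07, 2.96, 2.84, 1.48, 5.31 and 1.17 CPM in controls 1 to 6. In Isl1CKO 1 to 6 it measured 2.77, 2.48, 0.376, 2.09, 2.33 and 1.07 CPM. Controls 5, 1, 2 and 3 were above every library labelled Isl1CKO, while controls 4 and 6 lay within the range of that group. The log2 fold change was -0.76 (SE 0.53, 95% interval -1.93 to 0.42, adjusted p = 0.429, edgeR quasi-likelihood test). Of its relatives, 2 changed. Lhfpl2 fell from 74.7 ± 32.0 to 15.5 ± 17.3 CPM (SD, n = 6 each; log2 fold change -2.27, adjusted p = 0.0132), and Lhfpl3 rose from 1.04 ± 0.528 to 4.09 ± 3.11 CPM (log2 fold change 1.97, adjusted p = 0.0445), both with overlapping groups. The Lhfpl3 call was lost under 13 of 21 alternatives (adjusted p from 0.0111 to 0.139), and that of Lhfpl2 only without Isl1CKO libraries 2, 3 and 5 (adjusted p = 0.173). Lhfpl4 was at 33.5 and 34.1 CPM and was not called.

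Among 27 other hair bundle and transduction genes with a row, 14 were tested, 0 were lower and 1 was higher. The shares over all genes tested were 5.19% lower and 5.01% higher. Pls1, an actin-bundling plastin of stereocilia, rose from 15.9 ± 5.34 to 50.3 ± 14.6 CPM (SD, n = 6 each; log2 fold change 1.66, adjusted p = 5.31e-04), with no overlap between groups. The actin motor gene Myo6 measured 407 and 410 CPM and the G protein gene Gnai3 355 and 421 CPM in controls and in libraries labelled Isl1CKO, and neither was called. The channel gene Tmc1 averaged 0.107 and 0.410 CPM and Tmc2 averaged 0.157 and 0.153 CPM, near or under the floor, and neither was tested. The bundle genes in these libraries therefore ran from the level of Myo6 down to the floor, and which cells their reads came from was not tested.

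Otof encodes otoferlin, a calcium sensor for vesicle release at the hair cell ribbon synapse. It (ENSMUSG00000062372, chr5:30367062-30461932, minus strand) measured 0.914, 0.296, 7.26, 0.667, 0.713 and 0.878 CPM in controls 1 to 6. In Isl1CKO 1 to 6 it measured 0.475, 0.854, 3.69, 2.17, 0.365 and 0.533 CPM. Control 3 held 87 of the 132 Otof counts of its group, and Isl1CKO 3 and 4 held 49 and 29 of 107. The log2 fold change of -0.40 (SE 0.81, 95% interval -2.21 to 1.41, adjusted p = 0.818) became 0.95 without control 3. Control 3 was also the library with the most of the supporting cell gene Epyc (15 counts) and of the hair cell genes Pou4f3 (32 counts) and Lhx3 (10 counts). Other hair cell genes went the other way, since Grxcr1 (8.34 CPM) and Ptprq (0.250 CPM) were lowest among the controls there. The summed level of the 13 genes that define hair cells, given below, was 14.0 CPM in control 3, near the lowest control at 13.8 CPM. Isl1CKO 3 and 4 held 0 counts of Pou4f3 and at most 1 of Lhx3. The part of other cells in the Otof values was not tested. Of 14 other ribbon synapse genes, 12 were tested and 1 was called, against 10.2% of all genes tested. It was Syt4, a synaptotagmin (48.3 ± 10.4 to 134 ± 76.3 CPM, log2 fold change 1.47, adjusted p = 0.00439, edgeR quasi-likelihood test). Rab3a, a presynaptic gene of neurons in general, was at 324 CPM in the controls and 293 CPM in the libraries labelled Isl1CKO, without a call.

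Barhl1 encodes a homeodomain transcription factor of hair cells and of some neurons. It (ENSMUSG00000026805, chr2:28907679-28916668, minus strand) measured 1.33, 2.74, 1.92, 0.148, 0.713 and 0 CPM in controls 1 to 6 and 0, 1.32, 1.05, 0.448, 6.20 and 2.06 CPM in Isl1CKO 1 to 6. Each group held a library with 0 counts, and Isl1CKO 5 held 85 of the 149 counts of its group. The log2 fold change was 0.69 (SE 0.99, 95% interval -1.51 to 2.90, adjusted p = 0.727), and it was -0.22 without Isl1CKO 5. Its relative Barhl2 averaged 0.399 and 0.330 CPM, and was not tested.

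Most of the genes that define hair cells had few counts, and of 13 such genes with a row, 3 passed the filter on low counts. The exceptions were Grxcr1, above 3 counts in 12 of 12 libraries, Chrna9 and Ptprq, above 3 counts in 10 of 12 each, and Rbm24, above 3 counts in all 6 libraries labelled Isl1CKO. Pou4f3, a transcription factor required for hair cells, held 32 counts in control 3, 8 in control 4, 4 in Isl1CKO 6 and 0 in the other 9 libraries. Lhx3 held 10 counts in control 3 and at most 1 elsewhere. Gfi1, Slc26a5, Slc17a8 and Espn held at most 4 counts in any library, Xirp2 at most 6, Strc at most 7 and Myo3a at most 8. Ptprq held 339 counts in control 4 and at most 36 elsewhere. The summed level of the 13 genes ran from 13.8 to 46.9 CPM in the controls (median 19.6) and from 26.2 to 44.8 CPM in the libraries labelled Isl1CKO (median 36.8), a difference that did not pass adjustment over the 10 marker lists (exact 2-sided permutation p = 0.0281, adjusted p = 0.0938). Most of the sum came from Chrna9 in the libraries labelled Isl1CKO, from Ptprq in control 4 (25.1 CPM) and from Grxcr1 in the other controls. The difference was 0.77 for the log2 sum and 0.18 for the mean of log2(CPM + 1) over the genes (exact permutation test, adjusted p = 0.143).

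All 3 of these genes that could be tested were called, 2 higher and 1 lower, against 10.2% of all genes tested. Rbm24 and Chrna9 passed the filter on low counts only with the libraries labelled Isl1CKO, and Grxcr1 only with the controls. Being tested was thus tied to being high in 1 group, and the count of 3 describes the filter as much as these genes. Rbm24, an RNA-binding splicing regulator of hair cells and muscle, had at most 3 counts in each control and 2.24 to 9.54 CPM in the libraries labelled Isl1CKO, at least 22.7-fold higher against the floor (adjusted p = 2.17e-05, edgeR quasi-likelihood test). Chrna9, the receptor subunit for efferent input to hair cells, rose from 2.85 ± 2.60 to 25.3 ± 7.29 CPM (SD, n = 6 each; log2 fold change 3.14, adjusted p = 0.00439), with no overlap. Grxcr1, a stereocilia glutaredoxin, fell from 12.5 ± 3.08 to 3.72 ± 3.16 CPM (log2 fold change -1.74, adjusted p = 0.0498), with overlap. The Grxcr1 call was close to the threshold and was lost under 14 of the 22 alternatives, with adjusted p from 0.00586 to 0.195, while Chrna9 and Pls1 were called under all 22 and Rbm24 under the 21 that gave a value. Over both lists of other hair cell genes, 17 of 40 were tested, with a median log2 fold change of 0.24. Of these, 1 was lower and 3 were higher, against 5.19% and 5.01% of all genes tested. Apart from Grxcr1, the calls in these lists were higher in the libraries labelled Isl1CKO. They were Rbm24, Chrna9 and Pls1, too few to give a direction for hair cell genes.

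**Figure D2:**
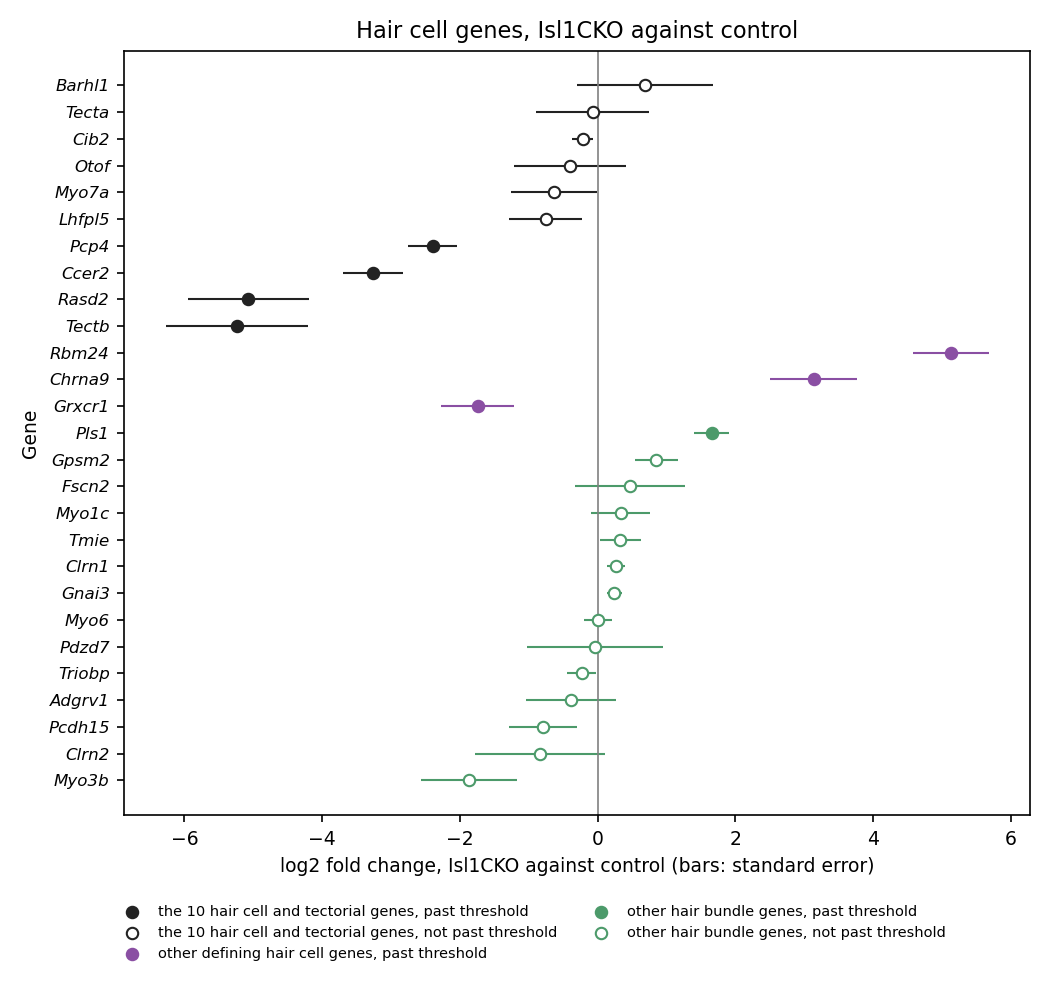
Log2 fold change of libraries labelled Isl1CKO against controls for the 10 genes (black), the tested defining hair cell genes (purple) and the tested hair bundle genes (green), with bars of 1 standard error and filled points past the threshold. Tectb and Rasd2 lie beyond -5, while Rbm24, Chrna9 and Pls1 lie on the other side at 5.13, 3.14 and 1.66.

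Pcp4, Ccer2 and Rasd2 are not structural genes of the bundle or matrix. Pcp4 encodes a small calmodulin-binding peptide that is abundant in Purkinje cells and other neurons. It (ENSMUSG00000090223, chr16:96467606-96525793, plus strand) measured 6.81, 12.3, 10.4, 8.82, 15.5 and 11.2 CPM in controls 1 to 6 and 1.98, 2.10, 2.71, 1.27, 0.875 and 3.43 CPM in Isl1CKO 1 to 6. The lowest control was still well above the highest library labelled Isl1CKO. The mean fell from 10.8 ± 2.99 to 2.06 ± 0.931 CPM (SD, n = 6 each), with a log2 fold change of -2.39 (SE 0.36, adjusted p = 4.48e-04). Its relative Pcp4l1 averaged 0.972 and 0.527 CPM and was not tested.

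Ccer2 encodes a coiled-coil protein rich in glutamate. It (ENSMUSG00000096257, chr7:28756174-28758968, plus strand) measured 10.2, 44.5, 39.5, 40.8, 48.3 and 37.2 CPM in controls 1 to 6. In Isl1CKO 1 to 6 it measured 1.35, 8.30, 4.52, 2.39, 2.63 and 3.81 CPM. Control 1 was far below the other controls and still above all libraries labelled Isl1CKO. The mean fell from 36.7 ± 13.6 to 3.83 ± 2.46 CPM (SD, n = 6 each; log2 fold change -3.26, SE 0.43, adjusted p = 1.54e-04), the smallest adjusted p of the 10. Its exons share 314 bases with Nfkbib on the opposite strand, and the use of strand in counting is not given in the sources used here. Nfkbib measured 42.1 and 36.6 CPM and was not called (log2 fold change -0.20, adjusted p = 0.407).

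Rasd2 encodes Rhes, a small GTPase best known from the striatum. It (ENSMUSG00000034472, chr8:75213944-75224113, plus strand) measured 3.32, 3.18, 5.42, 4.44, 3.96 and 1.61 CPM in controls 1 to 6, from 22 to 65 counts. In the libraries labelled Isl1CKO it held 0, 0, 1, 0, 7 and 0 counts. Every control was above every library labelled Isl1CKO, and Isl1CKO 5 was the only library of its group above the floor. The log2 fold change was -5.07 (SE 0.88, adjusted p = 0.00156). Against the floor of the 5 libraries other than Isl1CKO 5, Rasd2 was at least 15.9-fold lower than the control mean of 3.66 ± 1.29 CPM (SD, n = 6). Its relative Rasd1 averaged 1.43 and 0.703 CPM and was not tested. Over all 18 relatives of the 10 genes with a row, 10 were tested, with 1 lower and 1 higher, the genes Lhfpl2 and Lhfpl3 given above. Of all genes tested, 10.2% were called.

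Apart from Ccer2, whose partner Nfkbib has a row, 3 members share exon bases with a gene that has no row here. These are 57 bases of Tectb with Mir6715 on the same strand, 304 bases of Tecta with Gm47629 on the opposite strand and 243 bases of Pcp4 with Igsf5 on the same strand. Cib2 shares 227 bases with Sh2d7 on the opposite strand, which averaged 0.0492 and 0.444 CPM. Counts in shared bases are uncertain.

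Levels of different genes were compared per kilobase of exon. In the controls the order was Cib2 at 45.9 ± 5.79 CPM per kb (SD, n = 6), Ccer2 at 34.9 ± 12.9, Pcp4 at 10.6 ± 2.92, Tectb at 4.95 ± 3.27, Lhfpl5 at 1.31 ± 0.730, Rasd2 at 1.15 ± 0.407, Myo7a at 0.861 ± 0.501, Tecta at 0.413 ± 0.537, Barhl1 at 0.292 ± 0.272 and Otof at 0.226 ± 0.340 CPM per kb. The library ranges of all 9 neighbouring pairs in that order overlapped. In the libraries labelled Isl1CKO, Cib2 stayed first at 39.4 ± 10.3 CPM per kb and was separated from Ccer2, next at 3.64 ± 2.33 CPM per kb. The other 8 neighbouring pairs overlapped, and Tectb and Rasd2 came last at 0.131 ± 0.292 and 0.0307 ± 0.0644 CPM per kb.

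The spread between libraries of a group set the members apart from each other. The biological coefficient of variation (BCV, the relative spread beyond counting noise) was 0.202 for Cib2, close to the 0.213 that edgeR's trend gives for genes of that level. Pcp4 (0.423 against a trend of 0.562), Lhfpl5 (0.616 against 0.719) and Rasd2 (0.718 against 0.740) were also at or below the trend. Tectb had a BCV of 1.19 against 0.480, a ratio that 0.641% of tested genes reached, and Barhl1 had 1.15 against 0.749, a ratio reached by 4.33%. Tecta, Otof, Myo7a and Ccer2 lay between, at ratios reached by 7.51%, 11.8%, 9.85% and 6.25% of tested genes. The median ratio of gene to trend was 1.27 for the 10 genes, 0.867 for all genes tested, 1.01 for neuron genes, 1.96 for Schwann cell genes and 4.99 for macrophage genes.

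**Figure D3:**
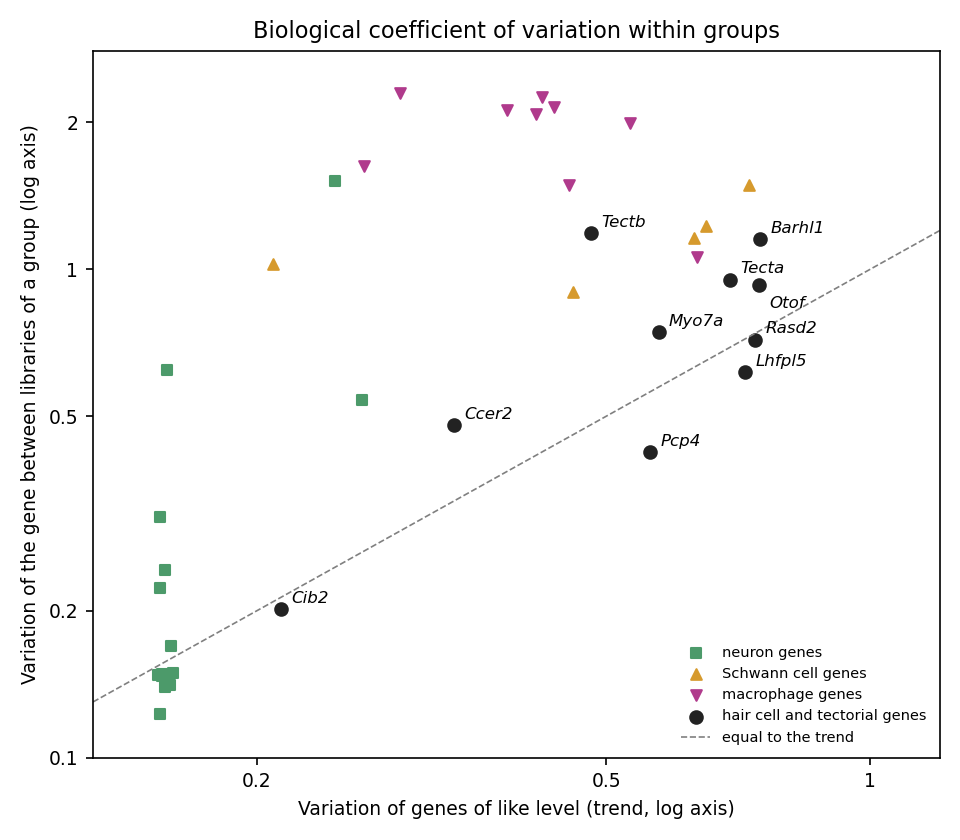
Biological coefficient of variation of each gene between libraries of a group (y axis, log) against the trend for genes of like level (x axis, log), for the 10 genes (black), neuron (green), Schwann cell (orange) and macrophage genes (purple). Cib2, Pcp4, Lhfpl5 and Rasd2 lie at or below the dashed line of equality, and Tectb lies well above it at 1.19.

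High values of the members were not gathered in a single library. Among the controls, control 5 was highest for 3 genes, controls 3 and 6 for 2 each, and controls 1, 2 and 4 for 1 each. Among the libraries labelled Isl1CKO, libraries 1 and 5 were highest for 3 genes each and the other 4 libraries for 1 each. The macrophage genes summed to 2.07 to 394 CPM in the controls (median 8.15) and to 1.46 to 749 CPM in the libraries labelled Isl1CKO (median 121), with the highest control value in control 1. The Schwann cell genes summed to 9.47 to 158 CPM and to 16.4 to 225 CPM (medians 52.3 and 100.1). Neither list differed between groups beyond the spread (exact 2-sided permutation p = 0.413 and 0.396, adjusted p = 0.486 for both). The macrophage difference was 1.58 on the log2 scale, with a range of 0.80 to 2.49 over single libraries left out. Without Isl1CKO libraries 2, 3 and 5 it was 4.15 (exact permutation p = 0.0714, adjusted p = 0.214), and the libraries kept, 1, 4 and 6, had the highest macrophage sums of their group. The highest genes were C1qb and C1qc among the macrophage genes, at 20.5 and 12.0 CPM in the controls and 49.8 and 43.9 CPM in the libraries labelled Isl1CKO, and Fabp7 among the Schwann cell genes, at 49.7 and 81.3 CPM, none of them called. The otic epithelium genes summed to 1.84 to 5.73 CPM and to 3.36 to 7.83 CPM (exact permutation p = 0.0216), a difference that did not pass adjustment either (adjusted p = 0.0938). Its highest genes were Krt18 at 0.966 and 1.24 CPM and Cldn9 at 0.528 and 1.62 CPM. The supporting cell genes summed to 40.2 to 82.0 CPM and to 27.4 to 61.7 CPM (exact permutation p = 0.0714, adjusted p = 0.179), and most of that sum came from Prox1 (41.7 and 22.6 CPM) and Jag1 (14.6 and 15.5 CPM), neither of them called. Lfng averaged 0.325 and 1.42 CPM, Sox2 0.614 and 1.22 CPM and Bmp4 0.408 and 1.10 CPM, while Hey2, Fgfr3, Epyc and Fst averaged at most 0.425 CPM.

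Of the 14 neuron genes tested, 4 were lower and 3 higher, against 5.19% and 5.01% of all genes tested. The neurofilament gene Nefm fell from 3337 ± 377 to 881 ± 424 CPM (SD, n = 6 each; log2 fold change -1.92, adjusted p = 2.63e-04), the vesicular glutamate transporter gene Slc17a6 rose from 365 ± 71.7 to 667 ± 34.7 CPM (log2 fold change 0.87, adjusted p = 1.14e-04) and the tubulin-binding gene Stmn2 rose from 1896 ± 183 to 2760 ± 311 CPM (log2 fold change 0.54, adjusted p = 6.08e-04). Tubb3, the other gene of highest level, was at 3210 and 3940 CPM and was not called. Of 3 mesenchyme genes tested, the collagen gene Col3a1 rose from 2.66 ± 1.61 to 14.1 ± 7.34 CPM (log2 fold change 2.40, adjusted p = 0.00241; adjusted p = 0.0577 without Isl1CKO libraries 2, 3 and 5), and Pou3f4 was at 52.9 and 27.4 CPM, without a call.

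**Figure D4:**
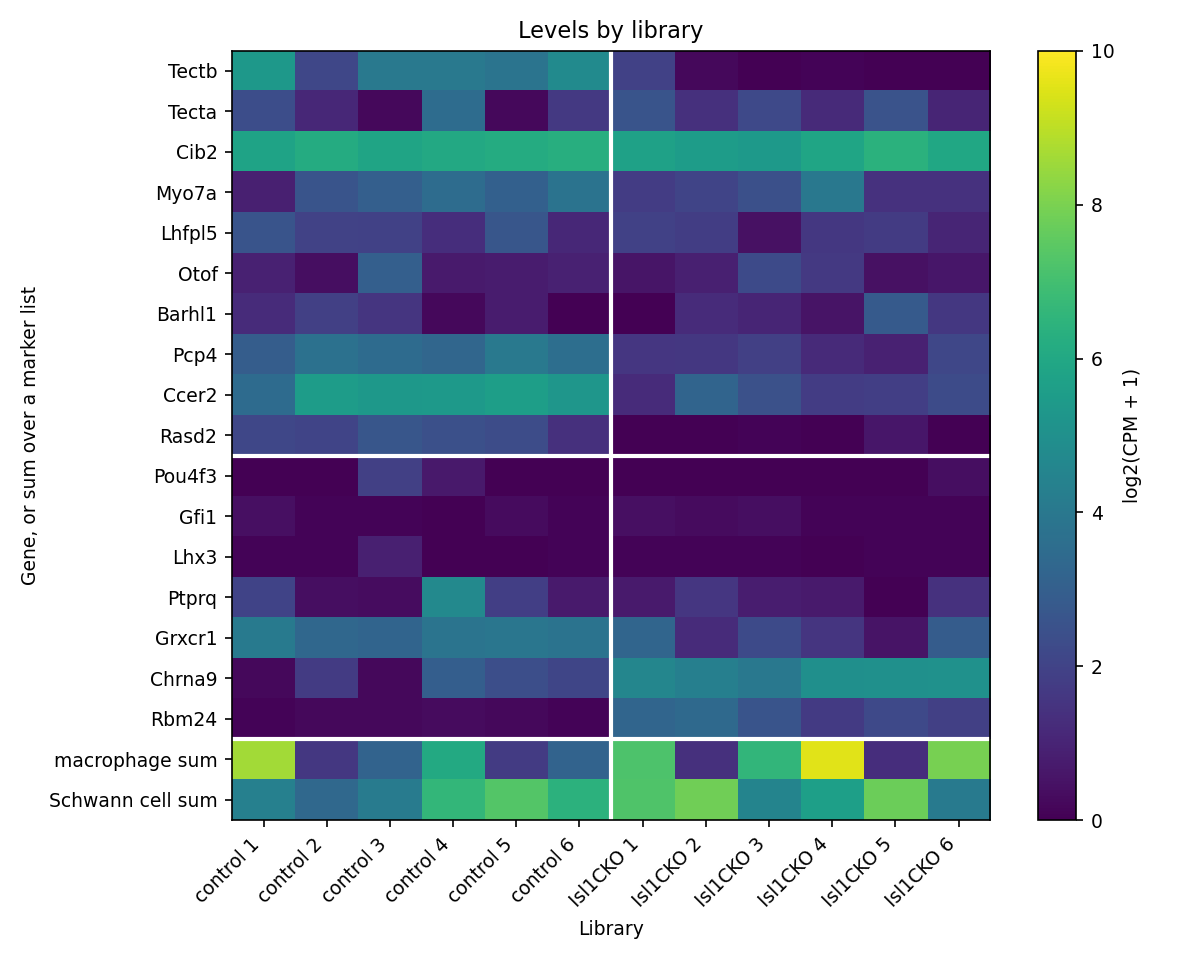
Colour map of log2(CPM + 1) in each of the 12 libraries for the 10 genes (top), 7 defining hair cell genes (middle) and the summed macrophage and Schwann cell genes (bottom). Cib2 is even across libraries, Otof and Pou4f3 are brightest in control 3, and the macrophage sum is brightest in Isl1CKO 4 at 749 CPM.

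With the macrophage and Schwann cell sums as covariates, a fit chosen after seeing the data, all 4 of the called members kept the call. Their log2 fold changes were -6.95 for Tectb, -2.25 for Pcp4, -2.94 for Ccer2 and -5.27 for Rasd2. In that fit Myo7a was at -1.27 and Barhl1 at 1.72, neither of them called. Without Isl1CKO libraries 2, 3 and 5, 3 of the 10 genes were called, all lower, against 4.73% of genes tested (2.47% lower). These were Pcp4 at -2.28 (adjusted p = 0.0103), Ccer2 at -3.87 (adjusted p = 0.00150) and Rasd2, which was at 0 counts in the 3 libraries left and so at least 15.9-fold lower (adjusted p = 0.00155).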

How the data were processed

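The authors deposited 1 table of read counts per gene, which are whole numbers and not normalized, for 25674 Ensembl identifiers in 12 libraries of sorted cells. The submitters' processing notes name cutadapt 1.18, Bowtie 1.2.2, STAR 2.7.0c, featureCounts and GRCm38.p6; the role of each, the annotation release and the use of strand are not given in the sources used here. Symbols were matched for 25620 identifiers, and the coordinates of genes and their exon lengths are those of GENCODE release M21 on GRCm38. Each column was assigned by the group and number in its name. Total counts of 11895603 to 13857480 per library put the floor of 3 counts at 0.219 to 0.250 CPM, for counting error only, since amplified reads without molecular identifiers are not independent molecules.

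Differences were tested with edgeR 4.0.16 in R 4.3.3, by the robust quasi-likelihood F-test on all 12 libraries without covariates, after filterByExpr (minimum count 10) and TMM scaling, with Benjamini-Hochberg adjustment over all 14813 genes tested and a threshold of 0.05. A standard error was obtained as the absolute log2 fold change over the square root of F, and the 95% interval used 10 residual degrees of freedom. CPM is after TMM scaling. Summed marker levels, as log2(sum + 1), were compared by exact 2-sided permutation of the group labels (924 arrangements, so that p cannot go below 0.00216) and adjusted over 10 lists. Of these lists, 0 passed after adjustment and 3 had an unadjusted p under 0.05. The remaining lists gave adjusted p-values of 0.0649 (neuron), 0.190 (hair bundle), 0.202 (tectorial and otolithic matrix), 0.486 (mesenchyme) and 0.913 (ribbon synapse). The fit was tested first on simulated counts with 200 altered genes and the same dispersion for every gene. It recovered 12.6% of the genes altered by 1 log2 unit and 90.0% of those altered by 2, with 6 false calls. At that dispersion, changes of 1 log2 unit were thus mostly missed. In the data the BCV ran from 0.0902 to 2.43 over all genes tested, so these shares do not carry over to single genes. A gene that was not called may still have changed. No pair of libraries had counts that agreed within sampling noise.

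The 10 genes and all lists were chosen with earlier results of these data known. Every one of the 10 is named, as are all defining hair cell genes, any relative, and from each other list the 2 called genes with the smallest p and the 2 with the highest mean CPM. A gene that this rule would name is not reported here. Tmc1, Tmc2, Otoa, Otog, Otogl, Oc90, Lfng, Sox2, Bmp4, Hey2, Epyc, Fst, Fgfr3, Isl1 and the genes that overlap a member were named after their values were seen. Emilin2 was named in the same way. Listed genes without a row, such as Atoh1 and Ocm, were not analysed here. Alternatives were scaling by DESeq2 size factors or the upper quartile, the DESeq2 1.42.0 Wald test, fits without an expression filter or with a minimum mean of 5 CPM, limma-voom (limma 3.58.1) with sample weights, robust estimation off, the replicate number as a block, covariates for macrophage and Schwann cell levels (chosen after seeing the data), removal of Isl1CKO libraries 2, 3 and 5 together, and removal of each library in turn. Marker levels were also taken as the mean of log2(CPM + 1) and on total counts.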

Additional observations from a re-analysis of the deposited data

Results flagged for a closer look

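In 10 of the 40 group values checked (the 10 genes and 10 marker sums in each group of 6), 1 library stood far from the others by Dixon's test. The nominal rate of that test, 1 in 20 groups or 2 of 40, holds for independent groups of normally distributed values. The values here were CPM, some from few counts, and the 40 checks drew on the same libraries. The 10 flags are therefore a description, and an excess over 2 was not tested. Tectb was 2.77 CPM in Isl1CKO 1 and 0 to 0.155 CPM in the other 5 of its group. Ccer2 was 10.2 CPM in control 1 against 37.2 to 48.3 CPM in the other controls. Rasd2 was 0.511 CPM in Isl1CKO 5 against 0 to 0.0753 CPM, Otof was 7.26 CPM in control 3 against 0.296 to 0.914 CPM, Myo7a was 15.2 CPM in Isl1CKO 4 against 1.68 to 4.37 CPM, and Barhl1 was 6.20 CPM in Isl1CKO 5 against 0 to 2.06 CPM.

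Among the marker sums, the defining hair cell genes reached 46.9 CPM in control 4, of which Ptprq made up 25.1 CPM, against 13.8 to 22.5 CPM in the other controls. The otic epithelium genes reached 5.73 CPM in control 1 against 1.84 to 2.81 CPM. The macrophage genes summed to 394 CPM in control 1 against 2.07 to 67.3 CPM, and to 749 CPM in Isl1CKO 4 against 1.46 to 245 CPM. Isl1CKO 4 was highest of its group for both Myo7a and the macrophage sum. Control 1 was the lowest control for Ccer2 and Myo7a and the highest for Tectb (39.6 CPM), the macrophage sum and the otic epithelium sum. The part of these cells in those values was not tested.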

How the results depend on the processing

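Of 215 values of single genes under the alternatives, 202 kept their direction and side of the threshold, 12 changed sign and 1 lost its call. The loss was Tectb at -4.32 without Isl1CKO libraries 2, 3 and 5, where 767 genes were called against 1511. Leaving out each library gave 1178 to 1517 called genes, 4 called members each time and 3 to 5 other hair cell genes. Tecta was 0.49 with limma-voom and 0.71 with the replicate block, and ran from -0.33 to 0.90 with single libraries left out. Otof was 0.11 with limma-voom and 0.26 with the covariates, and ran from -1.01 to 0.95. Barhl1 was -0.45 without Isl1CKO libraries 2, 3 and 5, and ran from -0.22 to 1.16. None of these 3 genes was called under any alternative, and the cause of the changes was not tested. With a mean of at least 5 CPM, Rasd2, Tecta, Otof, Lhfpl5 and Barhl1 were not tested and gave no value.

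The replicate block called 1450 genes and the same number of members, 4. Correlations of same-numbered libraries were -0.056 to 0.152, and 2 of 6 numbers matched best with their own, so the numbers were not taken to pair samples. For log2 marker sums (Isl1CKO minus control), the mean of log2 levels gave -0.16 for ribbon synapse, 0.044 for supporting cell and 0.29 for mesenchyme genes, each of opposite sign. Ribbon synapse genes ran from -0.039 to 0.071 with single libraries left out. The neuron sum passed adjustment on total counts (-0.19, adjusted p = 0.0216), without control 1 or control 4 (adjusted p = 0.0325 each) and without Isl1CKO 6 (adjusted p = 0.0216), and ran from -0.20 to -0.15 with single libraries left out. The defining hair cell genes, whose sum came mostly from Grxcr1, Chrna9 and, in control 4, Ptprq, ran from 0.66 to 1.00 and passed without control 4 (adjusted p = 0.0216). Otic epithelium ran from 0.51 to 0.79 and passed without control 1 (adjusted p = 0.0325). At this depth a level of at most 3 counts cannot be told from 0, which applies to some libraries of Tectb, Rasd2, Tecta and Barhl1.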
